A study of Caenorhabditis elegans with 30 samples.

Results

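The 40 genes described here were listed as encoding proteins that make or process ribosomal RNA in *Caenorhabditis elegans*. They were chosen by name and function: subunits of RNA polymerases I and III, proteins of the small nucleolar ribonucleoproteins (snoRNPs), enzymes that modify ribosomal RNA, assembly factors of the small and the large ribosomal subunit, the RNA exosome, and proteins of nucleolar structure and size. Earlier results of these data were known when the list was made, so the list was not blind to them. All 40 had a row in both deposited count tables, which hold 46904 and 46778 gene rows, and all 40 passed the filter on low counts in each fit.

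Ribosomal RNA is transcribed in the nucleolus by RNA polymerase I, with the 5S RNA made by RNA polymerase III. The precursor is methylated, pseudouridylated and acetylated, cut by nucleases and trimmed by the exosome while ribosomal proteins join it. In worms the size of the nucleolus is held down by NCL-1, a member of the TRIM-NHL family, and rises with the level of fibrillarin, FIB-1. Germ cells and oocytes of the worm have large nucleoli.

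The study asked how cold and lithium delay the forgetting of an odour memory. In the lithium experiment, untrained worms were kept overnight at 15 C or 20 C on plain NGM agar or on agar with 15 mM LiCl, and were not placed on ice. In the ice experiment, naive or butanone-conditioned worms spent 2 hours on ice. Before that, 1 set had been cultivated at 20 C, another had passed the night at 15 C, and the shifted set had passed the night at 15 C and 2 further hours at 20 C. Each of the 10 groups had 3 libraries, 30 in all, of polyadenylated RNA from whole worms of the wild-type strain N2 fed OP50 bacteria. Whole worms mix all tissues, so fewer cells of a type and less RNA per cell cannot be told apart. The replicates on ice are labelled biological, and no source used here says whether the lithium replicates were separate cultures, so p-values measure the spread between these libraries, which may be technical.

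Depth was 10111055 to 27794834 counts in a library of untrained worms and 9873554 to 30054357 in a library of worms on ice. A single member held 99 to 18036 counts in a lithium-experiment library (median 1152.5) and 9 to 16208 in an ice-experiment library (median 972.5). Ribosomal RNA genes themselves took 1.08 to 28.4% of counts without ice, with the highest shares in plain replicates 2 and 3 at 15 C, and 1.49 to 10.11% with it. Libraries of the ice experiment spread far more: the common biological coefficient of variation was 0.645 over the sums of a letter against 0.294 over the lithium libraries. The ice libraries were made from cDNA of either of 2 SMART-Seq kits, and which kit served which library is not given in the sources used here, so kit and group cannot be told apart.

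The genes are scattered over the autosomes (Ensembl annotation of the ce11 assembly), with 10 on chromosome I, 9 on II, 7 on III, 10 on IV and 4 on V. In 14 of 40 (35.0%) another protein-coding gene on the same strand ended at most 500 bases upstream, against 18.7% of the 19985 protein-coding genes. Such spacing is typical of worm operons, although operon membership was not tested. The rRNA methyltransferase gene rrp-8 starts directly after the GTPase gene nog-1, with a 5-base overlap of their exons. The exons of nsun-1 (chromosome II, 471262 to 475940, minus strand) share 1299 bases with W07E6.5 on the opposite strand, and those of pro-3 share 440 bases with zhp-4 on the same strand. The strand setting of the counting is not given, so the counts of these pairs are uncertain in their assignment.

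On plain agar at 20 C, levels per kilobase of exon differed widely between the genes. The highest mean levels were those of snu-13 at 442 ± 95.3 CPM per kb (SD, n = 3) and fib-1 at 313 ± 45.9 CPM per kb, both of the snoRNP core. Nucleolin (nucl-1) at 173 ± 56.5, nol-56 at 156 ± 18.6 and nol-58 at 141.7 ± 8.56 CPM per kb followed, and these neighbours in the order lay within the spread of each other. The lowest were ncl-1 at 5.98 ± 0.666, tsr-1 at 6.61 ± 0.587, pro-3 at 7.02 ± 1.42 and the largest RNA polymerase I subunit rpoa-1 at 7.91 ± 1.89 CPM per kb. The gene tsr-1 is grouped here with the small-subunit factors, a role that was not checked.

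Lithium lowered a group of these transcripts at both temperatures. At 20 C, 28 of 40 members had a negative log2 fold change against plain agar, 7 were called lower and 0 higher at an adjusted p under 0.05 (edgeR quasi-likelihood test, Benjamini-Hochberg adjusted over 12392 genes). Among all genes tested 6.33% were called lower and 5.91% higher in that comparison, and 54.4% were negative. The libraries of the groups did not overlap in 15 members that were lower with lithium and in 3 that were higher, against 15.1% and 18.4% of all genes. The members' median log2 fold change was -0.29, against -0.07 over all genes. At 15 C, 31 of 40 were negative and 5 were called lower, where 0.226% of all genes were called lower, 0.161% higher, and 43.7% were negative. Libraries separated in 22 lower members and 1 higher member, against 13.3% and 17.8% of all genes. The median there was -0.43, against 0.07 over all genes. The 5 called at 15 C were nsun-1, rpc-2, nol-58, nath-10 and ddx-27, and all 5 were also called at 20 C, where nol-56 and nol-14 joined them. The 2 lithium comparisons share no library. At 15 C ribosomal RNA took 1.31 to 28.4% of counts on plain agar and 1.08 to 13.8% with lithium, and its part was not tested. Leaving out 1 library left 0 to 13 members called at 20 C, where 2 of the 13 were higher, and 2 to 3 at 15 C. 28 members were below 0 at both temperatures and 9 were above 0 at both.

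The largest called fall was that of nsun-1, which encodes an rRNA cytosine methyltransferase. Its level was 81.6, 73.4 and 79.9 CPM on plain agar at 20 C and 38.8, 41.1 and 38.8 CPM with lithium. At 15 C it was 118, 133 and 131 CPM on plain agar and 50.6, 54.7 and 50.04 CPM with lithium. The groups did not overlap at either temperature, and the lithium level at 15 C stayed below the plain level at 20 C. The log2 fold change was -0.98 (SE 0.12, edgeR adjusted p = 0.0046) at 20 C and -1.30 (SE 0.12, edgeR adjusted p = 0.000955) at 15 C. The call was kept in 5 of 6 fits that left out a library at 20 C and in 6 of 6 at 15 C. W07E6.5, which overlaps it on the other strand, had log2 fold changes of 0.74 (SE 0.25) and 0.34 (SE 0.25), neither of them called.

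The gene of the second-largest RNA polymerase III subunit, rpc-2, had the next smallest adjusted p among the members at both temperatures. Its level at 20 C was 167, 176 and 178 CPM on plain agar and 100.4, 105 and 101 CPM with lithium. At 15 C it was 202, 208 and 223 CPM on plain agar and 116, 101 and 106 CPM with lithium. The groups were far apart at each temperature. The log2 fold change was -0.77 (SE 0.12, edgeR adjusted p = 0.0152) at 20 C and -0.96 (SE 0.12, edgeR adjusted p = 0.0041) at 15 C. Without a library the call was kept in 3 of 6 fits at 20 C and in 6 of 6 at 15 C. The gene lies 46 bases downstream of hach-1 on the same strand, and hach-1 had a log2 fold change of -0.59 (SE 0.14, edgeR adjusted p = 0.029) at 20 C and -0.24 (SE 0.14, edgeR adjusted p = 0.418) at 15 C. The largest subunit gene, rpc-1, had log2 fold changes of -0.49 (SE 0.17) and -0.71 (SE 0.17), neither of them called.

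In the snoRNP core the paralogues nol-56 and nol-58, scaffold proteins of box C/D snoRNPs, had the lowest values. The level of nol-58 was 256, 236 and 266 CPM on plain agar at 20 C and 139, 153 and 157 CPM with lithium. At 15 C it was 364, 419 and 459 CPM on plain agar and 209, 237 and 215 CPM with lithium, again with no overlap. The log2 fold change was -0.76 (SE 0.14, edgeR adjusted p = 0.0179) at 20 C and -0.91 (SE 0.14, edgeR adjusted p = 0.0132) at 15 C. Its relative nol-56 was at 241, 229.9 and 287 CPM on plain agar and 164, 165 and 185 CPM with lithium at 20 C. At 15 C nol-56 was at 387, 417 and 469.5 CPM on plain agar and 257, 268 and 275 CPM with lithium. The groups were apart at both temperatures, and nol-56 was called at 20 C (log2 fold change -0.56, SE 0.14, edgeR adjusted p = 0.0304) and missed the threshold at 15 C (-0.67, SE 0.14, edgeR adjusted p = 0.0644). With the replicate number as a block in the fit nol-56 was called at 15 C too (-0.66, edgeR adjusted p = 0.0474). Leaving out a library kept the call of nol-58 in 3 of 6 fits at 20 C and 2 of 6 at 15 C, and that of nol-56 in 2 of 6 at 20 C.

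Fibrillarin, the methyltransferase of the same particle, was not called. The level of fib-1 was 409, 381 and 502 CPM on plain agar at 20 C and 348, 357 and 339 CPM with lithium. At 15 C it was 632, 758 and 781 CPM on plain agar and 444, 535 and 501 CPM with lithium. All lithium values lay below all plain values of the same temperature, with log2 fold changes of -0.31 (SE 0.15, edgeR adjusted p = 0.168) and -0.55 (SE 0.15, edgeR adjusted p = 0.136). The kink-turn binding protein gene snu-13 had a log2 fold change of 0.13 (SE 0.21) at 20 C and -0.38 (SE 0.21) at 15 C. The box H/ACA protein gene garr-1 had -0.18 (SE 0.19) and -0.52 (SE 0.19), and neither gene was called.

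Of the other modification enzymes, nath-10, the RNA acetyltransferase, was called at both temperatures. Its level was 63.8, 70.3 and 70.7 CPM on plain agar at 20 C and 47.8, 44.8 and 50.9 CPM with lithium. At 15 C it was 88.4, 95.4 and 105.5 CPM on plain agar and 57.0, 51.1 and 54.7 CPM with lithium. The groups did not overlap, and the log2 fold change was -0.51 (SE 0.13, edgeR adjusted p = 0.0321) at 20 C and -0.83 (SE 0.13, edgeR adjusted p = 0.0199) at 15 C. The call was kept in 2 of 6 fits without a library at 20 C and in 0 of 6 at 15 C. The methyltransferase gene rrp-8 had log2 fold changes of 0.19 (SE 0.20) and 0.06 (SE 0.19).

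Among the assembly factors the helicase gene ddx-27, of the large subunit, was called at both temperatures. Its level was 57.2, 62.1 and 62.9 CPM on plain agar and 38.2, 42.6 and 41.5 CPM with lithium at 20 C, and 83.4, 92.2 and 103 CPM on plain agar and 49.2, 55.2 and 53.9 CPM with lithium at 15 C. The values again separated by agar. The log2 fold change was -0.58 (SE 0.13, edgeR adjusted p = 0.027) at 20 C and -0.81 (SE 0.13, edgeR adjusted p = 0.0253) at 15 C, kept in 2 of 6 and 0 of 6 fits without a library. In the small subunit's processome nol-14 was called at 20 C only, at 32.1, 40.3 and 37.4 CPM on plain agar and 21.8, 21.8 and 14.8 CPM with lithium (log2 fold change -0.91, SE 0.21, edgeR adjusted p = 0.027), a call kept in 2 of 6 such fits. At 15 C nol-14 was at -1.02 (SE 0.21, edgeR adjusted p = 0.0584), and it was called there with the replicate block (-1.04, edgeR adjusted p = 0.0473). The falls of nol-14 were larger than those of rpc-2 at both temperatures, with a larger standard error. Over the groups, 9 of 10 large-subunit factors were negative at 20 C and 10 of 10 at 15 C, with medians of -0.27 and -0.35. Of the 6 genes grouped as small-subunit factors, tsr-1 among them, 4 were negative at each temperature.

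The catalytic RNA polymerase I subunits had negative values that missed the threshold. The level of rpoa-1 was 33.1, 47.9 and 53.97 CPM on plain agar at 20 C and 32.7, 30.7 and 29.5 CPM with lithium. At 15 C rpoa-1 was at 55.4, 64.3 and 62.4 CPM on plain agar and 32.6, 33.4 and 31.8 CPM with lithium. The groups were separate, though at 20 C only by the small gap between 33.1 and 32.7 CPM, both in replicate 1. The log2 fold changes were -0.54 (SE 0.18, edgeR adjusted p = 0.062) and -0.90 (SE 0.18, edgeR adjusted p = 0.056). For rpoa-2 the values were 57.7, 57.7 and 81.0 CPM on plain agar and 44.4, 49.99 and 52.5 CPM with lithium at 20 C, and 94.7, 103.9 and 109 CPM on plain agar and 71.0, 55.8 and 65.9 CPM with lithium at 15 C. These groups were separate too, with log2 fold changes of -0.42 (SE 0.17, edgeR adjusted p = 0.103) and -0.67 (SE 0.17, edgeR adjusted p = 0.111). The small subunit gene rpoa-12 went the other way, with 0.59 (SE 0.28) and 0.63 (SE 0.28), and neither value was called.

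The exosome, which trims and degrades RNA from its end, had 5 of its 7 genes above 0 at each temperature. Its median was 0.33 at 20 C, against -0.07 over all genes, and 0.05 at 15 C, against 0.07 over all genes, so that at 15 C it stood near the background. The core subunit exos-3 had a log2 fold change of 0.85 (SE 0.27, edgeR adjusted p = 0.0561) and exos-4.2 one of 0.67 (SE 0.22, edgeR adjusted p = 0.0608) at 20 C. DESeq2 called exos-2, exos-3 and exos-4.2 higher at 20 C, with adjusted p = 0.0358, 0.0226 and 0.0288, where it called 10.7% of all genes higher. The helicase mtr-4 and the nuclease crn-3, which work with the core, were at -0.29 (SE 0.16) and -0.31 (SE 0.32). In the remaining group, ncl-1 was at 25.1, 30.1 and 31.02 CPM on plain agar and 29.6, 22.1 and 22.9 CPM with lithium at 20 C, and at 20.5, 29.3 and 21.7 CPM and 19.7, 17.95 and 15.3 CPM at 15 C. The values overlapped at 20 C and were apart by a small gap at 15 C, and the log2 fold changes of -0.21 (SE 0.20) and -0.43 (SE 0.20) were not called.

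**Figure D1:**
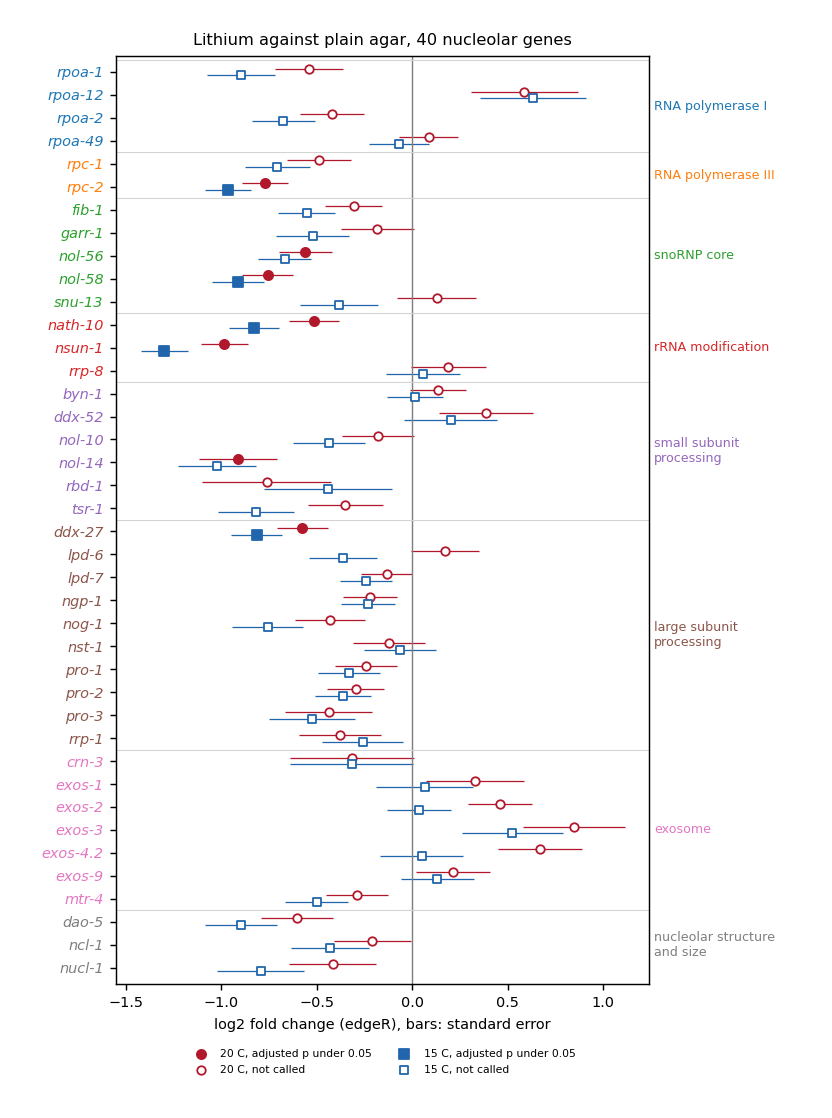
Log2 fold change of lithium against plain agar for each of the 40 genes at 20 C (circles) and 15 C (squares), with standard errors, in rows grouped by role. Filled symbols passed an adjusted p of 0.05: 7 at 20 C and 5 at 15 C, all below 0, while 5 of 7 exosome genes lie above 0 at each temperature.

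**Figure D2:**
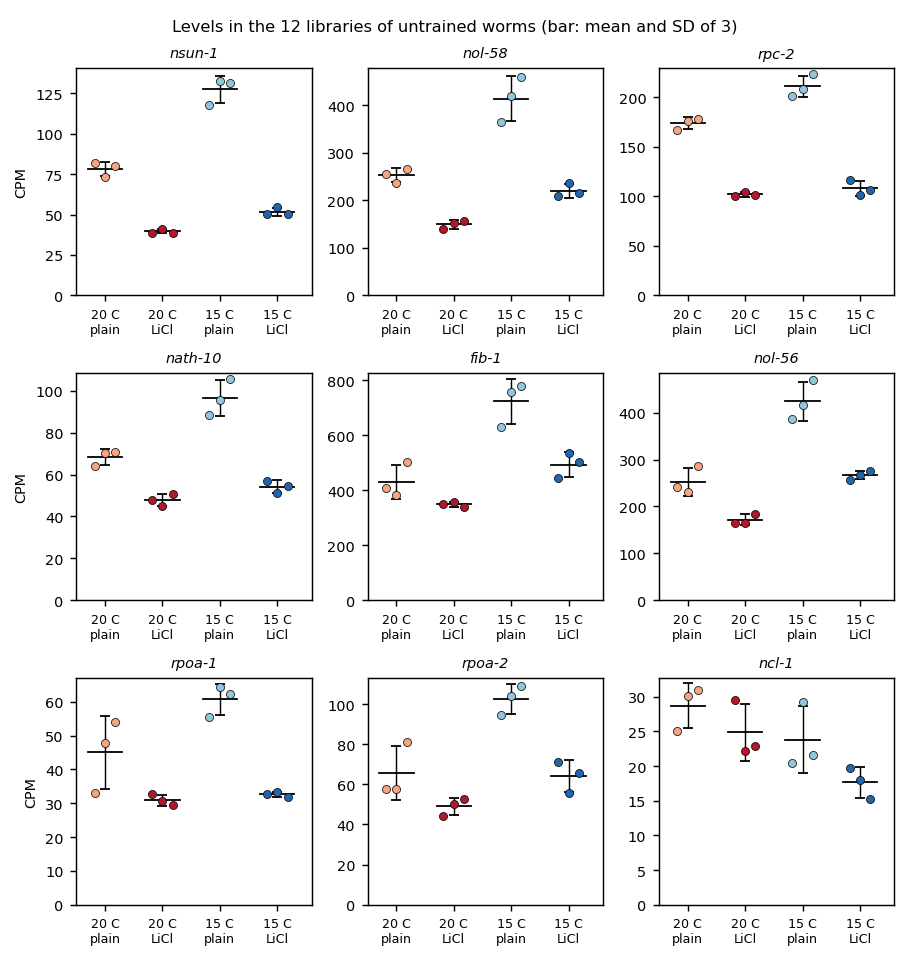
CPM of 9 genes in the 12 libraries of untrained worms, 3 per group, with mean and SD. The nsun-1 values with lithium lie between 38.8 and 54.7 CPM and those on plain agar between 73.4 and 133 CPM.

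The fall with lithium could not be shown to differ between the temperatures. The interaction was negative in 36 of 40 members, with a median of -0.21 against 0.13 over all genes, 42.4% of which were negative, but edgeR called 0, as it called 0% of all genes. At an unadjusted p under 0.05 it passed 0 members and 10.2% of all genes, and DESeq2 called 0 members and 0.0161% of all genes. For nsun-1 the difference was -0.31 (SE 0.17, edgeR adjusted p = 0.504) and for nol-58 it was -0.15 (SE 0.19, edgeR adjusted p = 0.72).

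The members' lithium fold changes went with exon length. Spearman's rho between length and log2 fold change over the 40 genes was -0.65 at 20 C and -0.65 at 15 C, against -0.17 and -0.46 over all genes with an exon length. All points of such a correlation come from the same 6 libraries. For members with at least 2000 and under 3000 exon bases (n = 10) the median log2 fold change was -0.42 at 20 C and -0.60 at 15 C, against -0.10 and -0.11 for all genes of that length. For members under 1000 bases (n = 5) it was 0.33 and 0.07, against 0.06 and 0.34. The level of long genes relative to short ones also differed between libraries, from -0.88 on the log2 scale in lithium replicate 2 at 15 C to 0.48 in plain replicate 2 at 15 C. With the length trend of each library removed, an alternative chosen after seeing the data, nsun-1 was at -0.86 (adjusted p = 0.0155) at 20 C and -1.20 (adjusted p = 0.00524) at 15 C, and nol-58 at -0.64 (adjusted p = 0.0249) and -0.89 (adjusted p = 0.032). Under it rpc-2 was at -0.53 (adjusted p = 0.0403) and -0.67 (adjusted p = 0.111), nath-10 at -0.29 (adjusted p = 0.198) and -0.57 (adjusted p = 0.169), and ddx-27 at -0.43 (adjusted p = 0.0683) and -0.67 (adjusted p = 0.0972). At 20 C exos-3 was then called higher at 0.75 (adjusted p = 0.0432) and exos-4.2 at 0.77 (adjusted p = 0.0408). The count of all genes called under that fit, given at the end, is not split by direction. These calls therefore have no background share beside them and are not read as a result about the exosome.

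**Figure D3:**
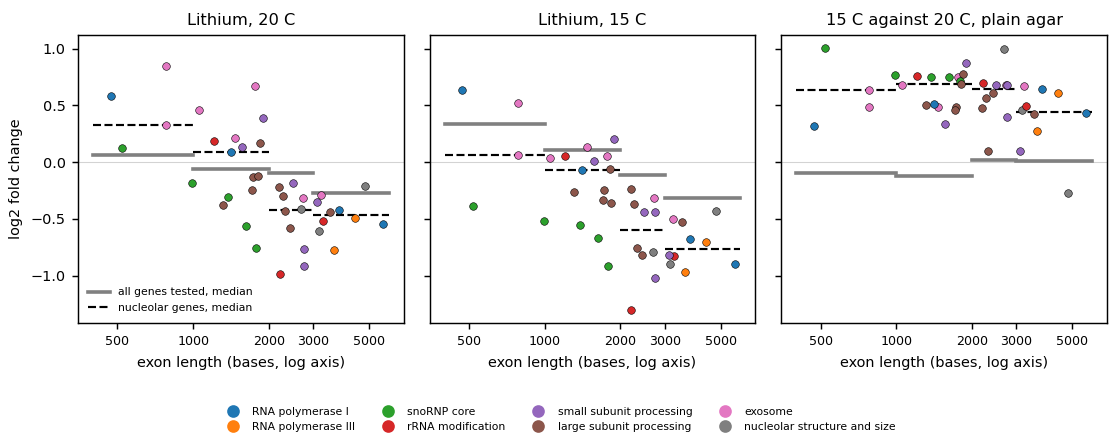
Log2 fold change against exon length (log axis) for the 40 genes, coloured by role, in 3 comparisons, with medians per length class of the 40 genes (dashed) and of all genes tested (grey). Under lithium the members' medians go from 0.33 to -0.46 with length at 20 C and from 0.07 to -0.76 at 15 C, and on plain agar they are between 0.44 and 0.69 in every class.

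The other genes of the pathway had a median above that of all genes at 20 C and below it at 15 C. Of a further list of 87 names, 54 had a row and 53 were tested. With lithium at 20 C, 20 of 53 were negative, where 54.4% of all genes were, and 5 were called lower, where 6.33% of all genes were, among them nol-6 (log2 fold change -0.82, edgeR adjusted p = 0.0212), a small-subunit processome protein, and dkc-1 (-0.58, edgeR adjusted p = 0.0323), the pseudouridine synthase. At 15 C, 35 of 53 were negative, where 43.7% of all genes were, and 2 were called lower, where 0.226% of all genes were: xrn-2 (-1.10, edgeR adjusted p = 0.0132), an exoribonuclease, and Y48B6A.1 (-0.84, edgeR adjusted p = 0.0306). Their medians were 0.09 and -0.13, against -0.07 and 0.07 over all genes.

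Several lists of tissue markers moved with lithium as well. Summed over the 40 genes, the level was 3753 to 4799.6 CPM on plain agar and 3291 to 3618.5 CPM with lithium at 20 C, and 6073 to 7203 CPM and 4392 to 5112 CPM at 15 C, so that plain and lithium libraries did not overlap at either temperature. Summed over 25 germline and oocyte markers, it was 5164 to 10285 CPM on plain agar and 14133 to 15466 CPM with lithium at 20 C, and 12251 to 12686 CPM and 12141 to 13500 CPM at 15 C. At 20 C, 9 of these 25 markers were called higher with lithium, with a median of 0.49, and at 15 C 0 were called, with a median of -0.01. Cuticle and moulting genes fell with lithium at 20 C, 12 of 14 called lower with a median of -4.03, and plain replicate 2 held 1464.5 CPM of them. At 15 C 13 of these 14 were negative, with a median of -2.45, 9 lower at an unadjusted p under 0.05 and 0 called. Medians of neuron, muscle, intestine and sperm markers for lithium were -0.79, -0.23, -0.27 and -1.03 at 20 C and -0.08, -0.15, 0.09 and -0.09 at 15 C. By sign alone, the members' medians of -0.29 and -0.43 went with the cuticle, neuron, muscle and sperm medians at both temperatures. They went with intestine at 20 C and with the germline at 15 C. At 15 C the germline, neuron and sperm medians were near 0, and 0 germline, neuron, sperm or muscle markers were called. Summed neuron markers there were higher with lithium, at 268 to 284 CPM against 234 to 254 CPM on plain agar. The 6 sperm markers summed to at most 15.4 CPM in any library of untrained worms. The part of tissue composition in the nucleolar genes' change was not tested.

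Without lithium, these transcripts were mostly higher in the cold. At 15 C on plain agar 39 of 40 members were above their 20 C level, 21 were called higher and 0 lower, and 2.19% of all genes were called higher, 7.77% were called lower and 53.1% were negative. The median log2 fold change was 0.61, against -0.07 over all genes. The libraries of the 2 temperatures did not overlap in 33 members, all higher at 15 C, while 22.6% of all genes separated in that direction and 23.2% in the other. This comparison shares its plain libraries with the lithium comparisons, so its values are given for themselves. The exception was ncl-1, the repressor of nucleolar size, at -0.27 (SE 0.20, edgeR adjusted p = 0.306).

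All 5 snoRNP core genes rose. The largest change was that of snu-13, from 229, 181 and 280.1 CPM at 20 C to 406, 428 and 547.5 CPM at 15 C, a log2 fold change of 1.00 (SE 0.21, edgeR adjusted p = 0.0276). From the values above, fib-1 rose by 0.75 (SE 0.15, edgeR adjusted p = 0.0276), nol-56 by 0.75 (SE 0.14, edgeR adjusted p = 0.0259) and nol-58 by 0.71 (SE 0.14, edgeR adjusted p = 0.0267) on the log2 scale, and garr-1 by 0.76 (SE 0.19, edgeR adjusted p = 0.0374). All 3 modification enzymes rose as well: nsun-1 by 0.70 (SE 0.12, edgeR adjusted p = 0.0242), rrp-8 by 0.76 (SE 0.20, edgeR adjusted p = 0.0392) and nath-10 by 0.50 (SE 0.13, edgeR adjusted p = 0.0398). Nucleolin, an abundant nucleolar RNA-binding protein, went from 322, 454 and 625 CPM to 819, 995 and 979 CPM, a log2 fold change of 0.99 (SE 0.23, edgeR adjusted p = 0.0327).

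In the remaining groups a part of each was called. Among the polymerases rpoa-2 rose by 0.65 (SE 0.17, edgeR adjusted p = 0.0388) and rpc-1 by 0.61 (SE 0.17, edgeR adjusted p = 0.0455), while rpoa-1 at 0.43 (SE 0.18) and rpc-2 at 0.28 (SE 0.12) were not called. Of the small-subunit factors ddx-52 and nol-10 rose, by 0.87 and 0.68. Of the large-subunit factors lpd-6, nst-1 (the worm nucleostemin), ddx-27, pro-2 and lpd-7 (the worm pescadillo) rose, by 0.48 to 0.77. In the exosome exos-4.2, exos-2 and mtr-4 rose, by 0.75, 0.68 and 0.67. The weakest positive values were those of tsr-1 at 0.10 (SE 0.20) and nog-1 at 0.10 (SE 0.18).

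Most of these temperature calls sat close to the threshold, the highest adjusted p of the 21 being 0.049, and the members' calls were all lost when any of 3 libraries was left out, as were most or all calls of other genes. Without plain replicate 2 or without plain replicate 3 at 15 C, 0 members and 0 of all genes were called. Without replicate 2 at 20 C, 0 members and 69 genes were, all 69 lower. Without replicate 1 at 15 C it was 6 members and 199 genes, and without replicate 1 or 3 at 20 C 18 and 22 members, and 2418 and 2828 genes. Ribosomal RNA took 28.4% and 24.21% of counts in plain replicates 2 and 3 at 15 C, 1.31% in replicate 1, and 1.40 to 8.13% on plain agar at 20 C. The members' median stayed between 0.53 and 0.67 in all 6 of these fits. Plain replicate 2 at 20 C was also the library with the lowest germline sum, 5164 CPM, and the highest cuticle sum. All 25 germline markers were positive in this comparison, with a median of 0.57 and 1 called. Muscle, neuron, intestine, sperm and cuticle markers had medians of -0.65, -0.56, -0.62, -0.27 and -2.001. The part of these markers and of the ribosomal RNA share in the result was not tested. Without replicate 2 at 20 C the members' median was 0.57.

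Of the other pathway genes 52 of 53 were positive and 18 were called higher, where 2.19% of all genes were, among them the 60S factor eif-6 (log2 fold change 0.61, edgeR adjusted p = 0.0298), grwd-1 (0.70, edgeR adjusted p = 0.0302) and dkc-1 (0.66, edgeR adjusted p = 0.0309). Their median was 0.50.

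Under lithium the step from 20 C to 15 C had the same direction in 37 of 40 members, with a median of 0.38 against 0.04 over all genes, of which 45.9% were negative. Libraries separated in 22 higher and 2 lower members, against 9.45% and 10.5% of all genes. edgeR called 0 members and 0% of all genes. At an unadjusted p under 0.05 it passed 23 members, 1 of them lower, and 11.7% of all genes, and DESeq2 called 3 members and 0.266% of all genes higher. The highest value of any member was 1.00, in a gene grouped with the small-subunit factors. The largest value of the always-named genes was that of nol-56 at 0.64 (SE 0.14, edgeR adjusted p = 0.245), followed by nol-58 at 0.56 (SE 0.14, edgeR adjusted p = 0.302) and fib-1 at 0.50 (SE 0.15, edgeR adjusted p = 0.361). The lone member lower at an unadjusted p under 0.05 was ncl-1 at -0.49 (SE 0.20). Germline markers had a median of -0.10 here.

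**Figure D4:**
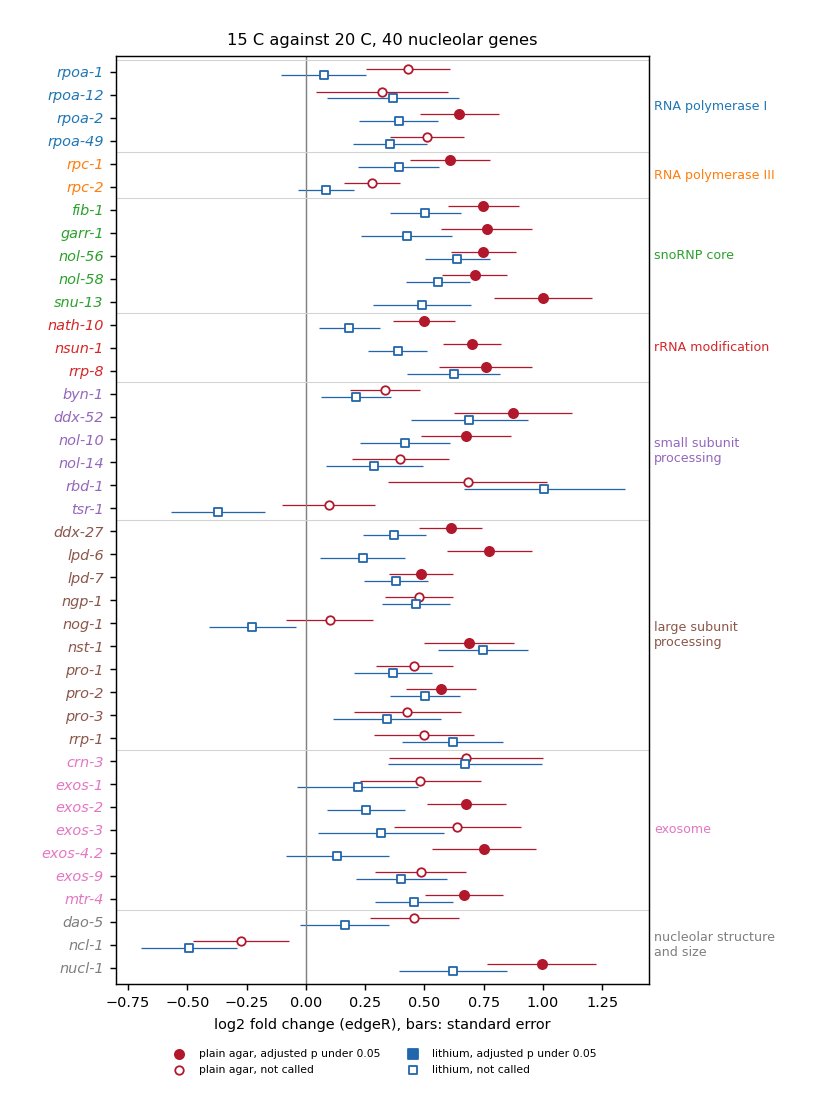
Log2 fold change of 15 C against 20 C for the 40 genes on plain agar (circles) and under lithium (squares), with standard errors, in rows grouped by role. On plain agar 39 of 40 lie above 0 and 21 are filled (adjusted p under 0.05), and under lithium 37 lie above 0 and none is filled.

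After 2 hours on ice no temperature difference of these genes was detectable. Naive and conditioned counts of a letter were added, which gave 3 sums per temperature group. At 15 C against 20 C, 25 of 40 members were positive with a median of 0.08 (0.14 over all genes, of which 43.1% were negative), and edgeR called 0 members and 0% of all genes. An unadjusted p under 0.05 was reached by 1 member and by 12.6% of all genes. Shifted worms against 15 C worms gave 31 negative members, a median of -0.09 (-0.09 over all genes, of which 62.4% were negative), and 0 members at an unadjusted p under 0.05, where 3.32% of all genes passed. Shifted against 20 C worms gave 20 positive and 20 negative members and a median of 0.01, where 47.9% of all genes were negative, with 1 member at an unadjusted p under 0.05 and 12% of all genes. edgeR called 0 members and 0% of all genes in these comparisons as well, and DESeq2 called 0 members in all 3, where it called 1.04%, 0.00649% and 5.66% of all genes.

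The letters of a temperature group spread widely. The level of nsun-1 was 30.4, 21.98 and 37.7 CPM in letters A, E and F at 20 C, 37.5, 72.1 and 46.5 CPM in B, G and H at 15 C, and 53.5, 66.2 and 27.6 CPM in C, D and H of shifted worms. The 20 C and 15 C values overlapped slightly, and the log2 fold change was 0.79 (SE 0.45, edgeR adjusted p = 0.436). For rpc-2 the sums were 142.3, 53.9 and 145 CPM at 20 C, 139, 188 and 104.5 CPM at 15 C and 179, 144 and 63.1 CPM in shifted worms. For nol-58 they were 111, 336 and 121 CPM, then 127, 226 and 129 CPM, then 172, 189 and 79.4 CPM, in the same order of groups. The groups overlapped in both genes, and the log2 fold changes of 15 C against 20 C were 0.34 (SE 0.54) and -0.23 (SE 0.57).

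The values of fib-1 were 251, 440.2 and 221 CPM at 20 C, 253, 487 and 200.2 CPM at 15 C and 364, 336 and 134 CPM in shifted worms. Those of nol-56 were 159, 362 and 184 CPM, 185, 374 and 211 CPM, and 253, 304 and 139.5 CPM. For nath-10 they were 42.0, 36.0 and 45.5 CPM, 37.8, 72.2 and 42.2 CPM, and 54.7, 51.6 and 26.3 CPM. All 3 overlapped between groups, with log2 fold changes of 15 C against 20 C of 0.04 (SE 0.57), 0.13 (SE 0.53) and 0.30 (SE 0.42). For rpoa-1 the sums were 66.5, 19.4 and 43.9 CPM, 59.0, 71.6 and 28.0 CPM, and 84.1, 61.5 and 14.5 CPM. For rpoa-2 they were 90.6, 56.7 and 114.5 CPM, 65.9, 129 and 82.0 CPM, and 124, 108 and 55.9 CPM. For ncl-1 they were 202, 42.0 and 107 CPM, 123, 144 and 48.01 CPM, and 184, 116 and 30.2 CPM. In these 3 genes letter E at 20 C was the lowest of its group and letter H the lowest of shifted worms.

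Letter E stood apart in the short genes snu-13 and rpoa-12, which were chosen here after their values were seen. At 20 C snu-13 was at 78.1 CPM in A, 778 CPM in E and 113 CPM in F, and rpoa-12 at 28.2, 166 and 35.9 CPM. Not every short gene did so, and some longer genes did. The short exos-1 was at 10.5, 19.9 and 16.4 CPM in A, E and F, and the longer lpd-7 at 66.5, 283 and 98.5 CPM. At the other temperatures snu-13 ran from 82.5 to 183 CPM. The level of long relative to short genes was -1.82 on the log2 scale in E, -0.89 in H of shifted worms and -0.39 in H at 15 C, against 0.22 to 0.85 in the other 6 sums. The member past an unadjusted p of 0.05 was rpoa-12 in both comparisons with 20 C, at -1.59 (SE 0.65, edgeR adjusted p = 0.39) and -1.54 (SE 0.65, edgeR adjusted p = 0.392). Across the 40 members rho between exon length and fold change was 0.50 for 15 C against 20 C and 0.61 for shifted against 20 C worms. The members' median changed sign with the letters used: for 15 C against 20 C it ran from -0.24 to 0.26 when 1 letter was left out. The levels in letters E and H and in the lithium libraries come from separately scaled tables and were not compared.

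**Figure D5:**
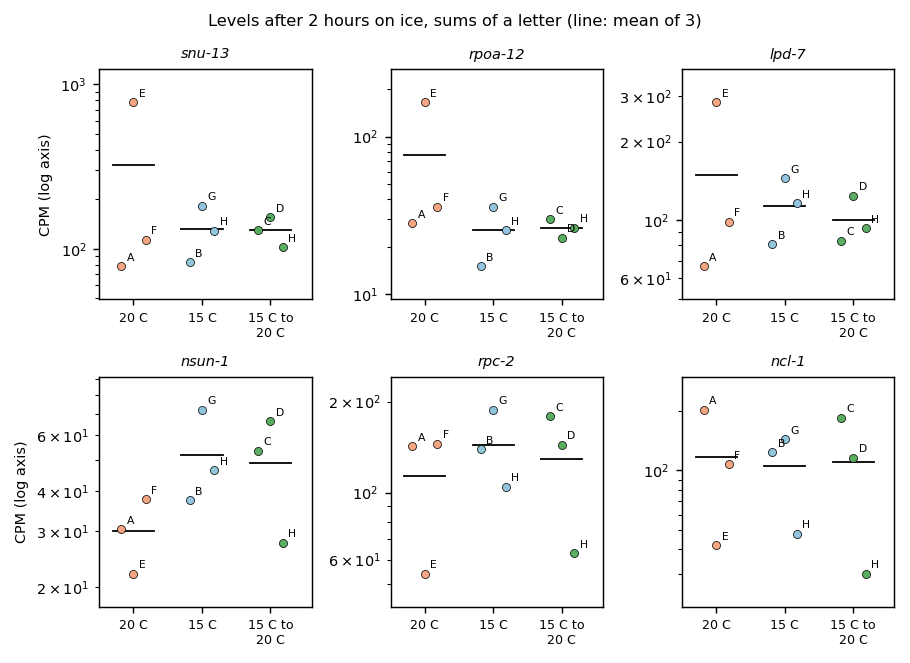
CPM of 6 genes in the 9 sums of a letter after 2 hours on ice, on a log axis, with the mean of 3 as a line. Letter E at 20 C is the highest of its group for snu-13, rpoa-12 and lpd-7 and the lowest for nsun-1, rpc-2 and ncl-1, and letter H is the lowest of shifted worms for nsun-1, rpc-2 and ncl-1.

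Conditioning with butanone changed none of these transcripts detectably. Averaged over the 3 temperature groups, 21 of 40 members were positive and 19 negative, with a median of 0.01 against 0.02 over all genes, 45.9% of which were negative. edgeR called 0 members and 0% of all genes, an unadjusted p under 0.05 was reached by 0 members and 0.215% of all genes, and DESeq2 called 0 members and 0% of all genes. At 20 C fib-1 was at 285, 442 and 181 CPM in naive and 258, 419 and 258 CPM in conditioned worms of letters A, E and F, and nsun-1 at 33.8, 24.3 and 34.4 CPM in naive and 32.1, 18.2 and 39.97 CPM in conditioned worms. In both genes the range over the letters of a group was wider than the naive to conditioned difference of any letter. Letter E set that range, while A and F lay closer together. The log2 fold change over all temperatures was 0.01 (SE 0.31) for fib-1 and -0.04 (SE 0.24) for nsun-1. The fit had no term for the letter, so its SEs and p-values also hold the spread between letters. With the letter as a block no call changed. The widest values of any member were -0.34 (SE 0.25) for exos-4.2 and 0.35 (SE 0.39) for crn-3. None of the other pathway genes was called in any comparison on ice.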

How the data were processed

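RNA counts of 30 libraries were used. The deposited tables hold raw counts, 1 row for each gene, which the authors made with cutadapt, FastQC, HISAT2 and HTSeq, and analysed with DESeq2, on build ce11, per the submitters' processing notes, with no versions given. The check of the replicate letters found r of 0.47 to 0.90 between residuals of the naive and conditioned libraries of a letter in all 9 pairs, which the labels name alike. In the lithium experiment every pair of same-numbered libraries was above 0.1 for lithium against plain agar at 15 C (0.17 to 0.25) and for 15 C against 20 C under lithium (0.19 to 0.27), a pairing that comes from the data and not from the labels, and not every pair was in the other comparisons. Replicate libraries differed beyond sampling noise (lowest chi-square per degree of freedom 25.63). R 4.3.3 and edgeR 4.0.16 were used for the fits, with TMM scaling, filterByExpr (smallest count 10) and the robust quasi-likelihood test, two-sided, with Benjamini-Hochberg adjustment and a threshold of 0.05. The lithium fit had 12 libraries in 4 groups, the fit of temperature on ice 9 sums in 3 groups (15412 genes) and the training fit 18 libraries in 6 groups (14864 genes). SE is the log2 fold change over the square root of F, and CPM are TMM-scaled. DESeq2 1.42.0, other scaling, no filter, a replicate block, fewer libraries and removal of the length trend were alternatives. The members, the 53 other pathway genes and the marker lists (germline, cuticle, intestine, neuron, muscle, sperm) were chosen with earlier results of these data known. Values per library are given for called members, up to 6 per comparison by smallest adjusted p, and always for fib-1, nol-56, nol-58, rpoa-1, rpoa-2, rpc-2, nath-10, nsun-1 and ncl-1. Steps were tested on simulated counts with changes larger than any member's and with less spread than the ice libraries. That test does not show what size of change the ice fits could find.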

Additional observations from a re-analysis of the deposited data

How the results depend on the processing

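For the 33 values of called members, 223 of 396 values under an alternative kept their direction and their side of the threshold, 173 lost the call and 0 changed sign. Of the members not called, 4 of 33 (lithium at 20 C), 7 of 35 (lithium at 15 C) and 2 of 19 (15 C on plain agar) changed sign under at least 1 alternative. Members called with lithium at 20 C (7), with lithium at 15 C (5) and at 15 C on plain agar (21) came to 12 (3 of them higher), 16 and 26 with DESeq2. For 15 C against 20 C under lithium DESeq2 called 3. Without the filter on low counts they came to 4, 4 and 10, with only the 6 libraries compared to 0, 14 and 0, and with the length trend removed to 7 (5 lower, and exos-3 and exos-4.2 higher), 2 and 26. Leaving out 1 library gave 0 to 13 (2 of the 13 higher), 2 to 3 and 0 to 22. With the replicate block they came to 8 (1 higher), 7 and 21, and the block called 0 members for 15 C against 20 C under lithium. Over all 18 pairs of same-numbered lithium libraries, those of the 2 comparisons whose numbers pair included, r was -0.32 to 0.35, with 13 above 0.1. Of the 12 libraries, 7 were closest to their own number. Plain agar at 15 C with lithium at 20 C, which was not a comparison here, also had every pair above 0.1 (0.19 to 0.28). For training, the replicate block by letter changed no call. No paired analysis was possible for temperature on ice, because the temperature groups share fewer than 2 letters. Leaving out a library or letter called 0 members in the other comparisons. Over all genes the counts called were 1516, 48 and 1235 in the first 3 comparisons. DESeq2 gave 2542, 433 and 3048, and no filter gave 984, 54 and 711. The 6 libraries compared gave 0, 264 and 0, and removal of the length trend 1969, 40 and 2319. Leaving out a library gave 5 to 2855, 11 to 21 and 0 to 2828. For 15 C against 20 C under lithium (0 genes), DESeq2 called 33 higher and 71 lower, no filter 3 higher and 8 lower, the replicate block 0 higher and 3 lower, the length trend 1 higher and 2 lower, and leaving out a library 0 higher and 0 to 1 lower, and for the interaction (0 genes) DESeq2 gave 2. On ice (0 genes in each), DESeq2 gave 160 for 15 C against 20 C, 1 for shifted against 15 C and 873 for shifted against 20 C. No filter gave 972, 284 and 1320, and 1 for training. For shifted against 20 C the length trend gave 1 and leaving out a letter 0 to 554, the highest without letter H. The causes were not tested. The wide spread between letters limits what the ice libraries can show at any depth.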
